A study of Homo sapiens with 24 samples.

Results

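The comparison of miR-133a with the empty vector was made in Flp-In T-REx 293 cells, a line derived from human embryonic kidney (HEK293). It took 6 of the 24 RNA-seq libraries of the series, 3 of miR-133a-expressing cells and 3 of cells carrying the vector without a miRNA, all of batch 2. Every group shared the same handling: a lentiviral vector was stably integrated, cells were selected in 1 mg/mL Geneticin for 6 days, and 1 ug/mL doxycycline was then given for 7 days, to control cells too. The hairpin lay in an intron of a GFP reporter under a doxycycline-inducible CMV promoter, and replicates were transduced and maintained separately, so that each was a pool of integrations in a kidney-derived line rather than in muscle. The members are all genes that passed the filter on low counts, 14054 of the 29794 in the count table, with no choice by their response. Total exon counts were 13200892, 15066257 and 14141696 in the empty vector libraries and 13256937, 13877512 and 14637722 in the miR-133a libraries. The cells were also set against the 4 other miRNA groups of the same batch (miR-373, miR-372, miR-302a and miR-155; 12 libraries, with totals from 13047400 to 35040778), a comparison that uses no empty vector library but shares the miR-133a libraries.

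A miRNA guides Argonaute proteins to messenger RNAs, mostly through pairing of its seed, bases 2 to 8 from the 5′ end, to sites in the 3′UTR, and the paired messages are translated less and decay faster. miR-133a is one of the most abundant miRNAs of skeletal and cardiac muscle, where it is known for acting on regulators of myoblast growth, the actin cytoskeleton and splicing. An 8mer site pairs with the whole seed and has an A opposite the first base, a 7mer-m8 site lacks that A, a 7mer-A1 site lacks the pair with base 8, and a 6mer lacks both. The mature guide strand (RefSeq, GRCh38.p14) is shown with its seed in capitals.
hsa-miR-133a-3p: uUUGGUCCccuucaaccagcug
Sites of the genes on which the results turn follow, read on the strand of the gene from GRCh37 with the seed match in capitals. The first 6 lie in genes that fell, the next 2 in the PTBP2 and PTBP3 paralogs of PTBP1, which moved in opposite directions, and the last in a gene that fell and holds only 6mers.
FTL (8mer, chr19:49470106-49470113, plus strand): taacaagccttGGACCAAAtggaaataaag
TAGLN2 (8mer, chr1:159888340-159888347, minus strand): cctttcccctgGGACCAAAatttaggggcc
CNN2 (8mer, chr19:1039029-1039036, plus strand): aatacgactgtGGACCAAAcgcaataaaac
SMARCD1 (8mer, chr12:50494358-50494365, plus strand): gtttttttcatGGACCAAActtttttttgt
PTBP1 (8mer, chr19:811857-811864, plus strand): cttcaaattttGGACCAAAgtctcatttct
GSTP1 (7mer-m8, chr11:67354098-67354104, plus strand): tcctttctccaGGACCAAtaaaatttcta
PTBP2 (8mer, chr1:97279994-97280001, plus strand): acaaccaggtgGGACCAAAgtttatgtgcc
PTBP3 (8mer, chr9:114982072-114982079, minus strand): gagaaaaaacaGGACCAAAgtttatgtgcc
ARL6IP1 (6mer, chr16:18804118-18804123, minus strand): cgtgaatatagaGACCAAgtttaccacttc

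Most genes that changed with miR-133a were lower. Of the 14054 genes tested, 558 fell (3.97%) and 192 rose (1.37%), so that 750 (5.34%) passed an adjusted p of 0.05 in edgeR's quasi-likelihood test and 74.4% of these were lower. The changes were mostly small: the median log2 fold change was −0.53 over the genes that fell and 0.39 over those that rose, and 57 genes fell and 14 rose by at least 2-fold. Against the other miRNA groups 1264 genes were lower (8.99%) and 1235 higher (8.79%), 2499 in all (17.8%). Of the 408 genes with a 3′UTR 8mer for miR-302a-3p and no miR-133a-3p match of 7 or 8 bases, 28.7% were higher in that comparison, as were 20.8% of the 452 such genes for miR-155-5p. In a bulk library, less RNA of a gene per cell and fewer cells that express it cannot be told apart. The count of 750 was sensitive to the fit, and it was 2349 when only the 6 libraries entered, while leaving out any 1 of the 6 lowered the share of tested genes called from 5.34% to between 2.63% and 3.45%.

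The deepest decreases included ferritin, actin-binding and chromatin genes. FTL (ENSG00000087086.9), the ferritin light chain of the iron storage shell, was at 303, 296 and 315 CPM (counts per 1e6 counts, on TMM library sizes) in the empty vector libraries and at 72.2, 83.5 and 77.2 CPM in the miR-133a libraries. Each miR-133a library was thus far under the lowest empty vector library, and the 12 libraries of the other miRNAs lay between 335 and 559 CPM. The log2 fold change was −1.97 ± 0.15 (SE; adjusted p = 5.3e-08, edgeR), which is 25.5% of the empty vector level. FTL has 16 annotated pseudogenes, and reads that map equally well to such copies were not counted, so that its CPM values may understate its level.

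TAGLN2, transgelin-2, which binds actin filaments, was at 265, 271 and 299 CPM without the miRNA and at 66.7, 73.0 and 76.7 CPM with it (−1.95 ± 0.09 SE, adjusted p = 1.4e-10, edgeR). CNN2, calponin 2, a related actin-binding protein, was at 52.9, 56.9 and 58.0 CPM against 16.9, 15.7 and 17.6 CPM (−1.74 ± 0.09 SE). Both groups were tight and far apart for these genes, though CNN2, with 12 annotated pseudogenes, carries the same uncertainty as FTL. SMARCD1, a subunit of the SWI/SNF chromatin remodelling complex, fell from 150, 163 and 162 CPM to 49.7, 46.3 and 56.4 CPM (−1.64 ± 0.08 SE). ARL6IP1, a membrane protein that shapes the endoplasmic reticulum, fell from 217, 177 and 204 CPM to 60.4, 65.7 and 65.3 CPM (−1.64 ± 0.10 SE). The ARL6IP1 3′UTR has 2 6mer matches, one of which is printed above, and no longer match in any annotated 3′UTR of the gene, although the gene fell about as far as SMARCD1. A transcript of another annotated gene overlaps ARL6IP1 on the same strand.

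The other 10 genes of the 15 with the deepest decreases covered several functions. SV2A, a synaptic vesicle glycoprotein, changed by −1.40 ± 0.10 (SE), BICC1, an RNA-binding protein, by −1.39 ± 0.09, and CALD1, caldesmon, an inhibitor of actomyosin, by −1.34 ± 0.07 on the log2 scale. SEC61B, a subunit of the channel through which proteins enter the endoplasmic reticulum, changed by −1.29 ± 0.13 and GSTP1, a glutathione transferase, by −1.26 ± 0.13. The non-coding LINC02381 changed by −1.30 ± 0.10, from 58.4, 60.8 and 62.9 CPM to 23.2, 25.8 and 25.0 CPM. The remaining 4 were EVA1B (−1.55 ± 0.24), the scavenger receptor SCARA5 (−1.49 ± 0.39), the ubiquitin ligase RNF165 (−1.43 ± 0.29) and the tetraspanin TSPAN2 (−1.36 ± 0.30). SCARA5 passed with an adjusted p of 0.028 in edgeR and did not pass in any of the 6 fits that left out a library (adjusted p up to 0.096), and TSPAN2 did not pass in 1 of them. Of the 15, 8 had an 8mer in the 3′UTR, 2 a 7mer-m8 as best match, 1 a 7mer-A1, 2 a 6mer and 1, TSPAN2, no match, and LINC02381 has no 3′UTR. Against the other miRNA groups all 15 were lower past the threshold, from −2.31 for FTL to −0.80 for BICC1 and RNF165.

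**Figure D1:**
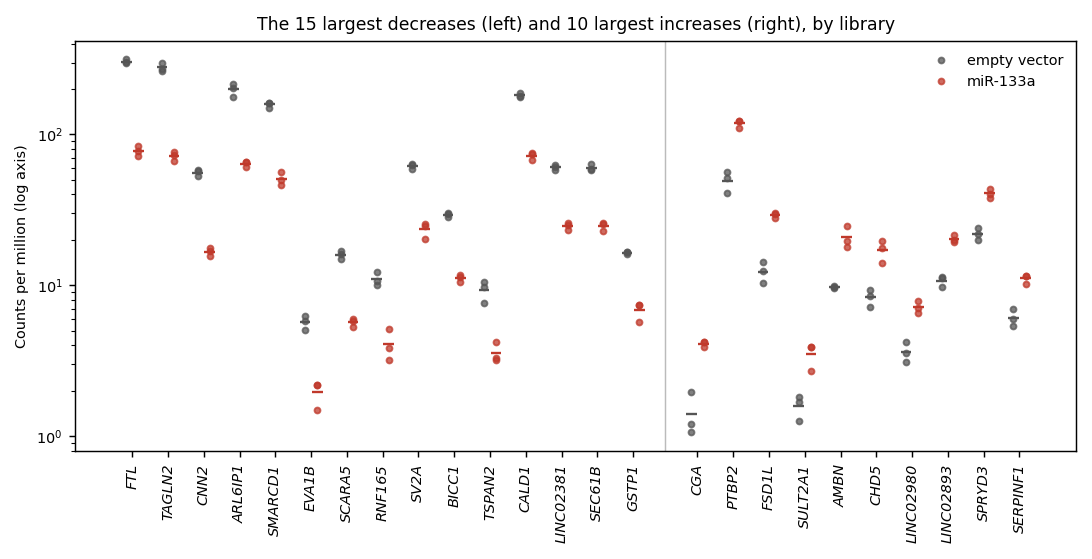
CPM (log axis) of the 15 genes with the deepest decreases, left, and the 10 with the largest increases, right, in each library, with 3 empty vector points in grey, 3 miR-133a points in red and a bar at the mean of each group. No gene shown has overlapping groups, which the choice of these genes required, and CGA and SULT2A1 lie near 1 CPM in the empty vector.

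Fewer genes rose, and those that rose most included hormone, enamel, splicing and non-coding genes. CGA, the alpha chain shared by the glycoprotein hormones, was at 1.20, 1.05 and 1.96 CPM in the empty vector and at 4.20, 3.87 and 4.20 CPM with miR-133a (1.54 ± 0.37 SE, adjusted p = 0.017, edgeR). Its counts ran from 16 to 62, and it failed the threshold in 4 of the 6 fits without one library and against the other miRNA groups (0.70, adjusted p = 0.069). AMBN, ameloblastin of the enamel matrix, rose from 9.53, 9.95 and 9.72 CPM to 18.1, 19.6 and 24.7 CPM (1.10 ± 0.12 SE), above the 12 libraries of the other miRNAs (7.18 to 9.40 CPM). FSD1L rose from 14.2, 10.3 and 12.4 CPM to 28.0, 29.6 and 29.9 CPM (1.25 ± 0.13 SE), and in the other miRNA libraries it stayed between 9.72 and 14.2 CPM. CHD5, a chromatin remodeller of neurons, rose by 1.04 ± 0.26 (SE), but lost the threshold in 5 of the 6 fits that left out a library. The non-coding LINC02980 and LINC02893 rose by 0.99 ± 0.18 and 0.92 ± 0.10, and SPRYD3 by 0.89 ± 0.11.

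For 3 of the 10 largest increases the direction depended on the control, or was not called with both. SERPINF1, a secreted inhibitor of blood vessel growth, rose from 5.93, 5.34 and 6.99 CPM to 10.3, 11.5 and 11.5 CPM (0.87 ± 0.22 SE, adjusted p = 0.022, edgeR), yet was at −0.74 (adjusted p = 0.0031, edgeR) against the mean of the other miRNA groups. These differed among themselves, with means of 28.2 CPM for miR-373, 30.7 CPM for miR-372 and 28.3 CPM for miR-302a but 4.81 CPM for miR-155, so that miR-133a (11.1 CPM) lay under the first 3 and above the last. SULT2A1, a sulfotransferase of steroids and bile acids, was 1.15 ± 0.21 higher than the empty vector and at −0.34 (adjusted p = 0.13, edgeR) against the others, again between miR-155 (1.82 CPM) and the other 3 groups (5.66 to 6.52 CPM) at 3.49 CPM. CGA was the third. The SERPINF1 call against the empty vector was lost in 4 of the 6 fits without one library.

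Genes with a seed match in the 3′UTR were lower than those without one, and the order followed the length of the match. Among the 13033 tested genes with an annotated 3′UTR, 446 held an 8mer, and their median log2 fold change was −0.21, against 0.03 for the 9237 genes with no match. In between were the 732 genes whose best match was a 7mer-m8 (−0.10), the 1046 with a 7mer-A1 (−0.08) and the 1572 with a 6mer (−0.03). Of the 8mer genes 27.4% fell and 0.673% rose, while of those with no match 1.82% fell and 1.70% rose. The shares that fell were 13.1% with a 7mer-m8, 9.66% with a 7mer-A1 and 3.31% with a 6mer, against 3.97% of all genes. Against the other miRNA groups the medians were −0.17, −0.05, −0.02, 0.01 and 0.02 from 8mer to no match. Seen from the called genes, 319 of the 539 that fell and have a 3′UTR held an 8mer or a 7mer (59.2%), as did 15 of the 184 that rose (8.15%) and 17.1% of all.

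**Figure D2:**
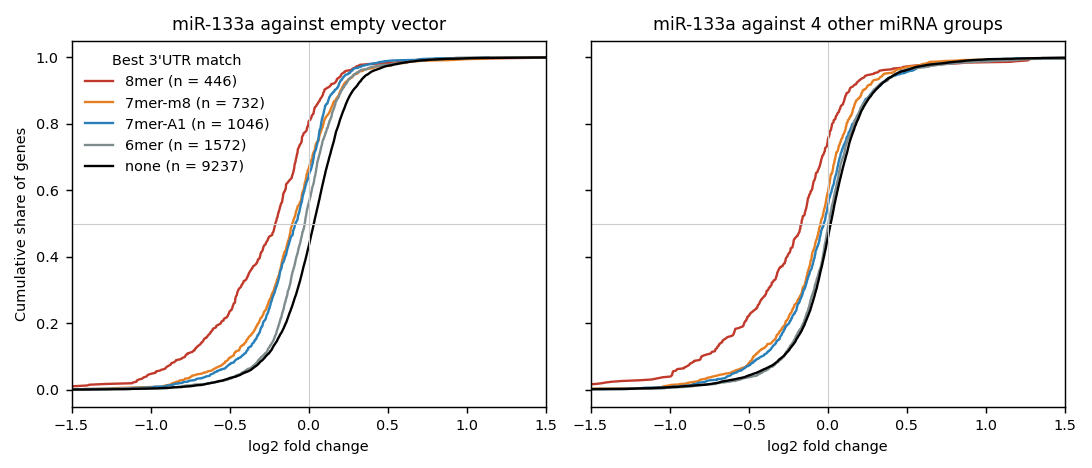
Cumulative share of genes (vertical axis) by log2 fold change (horizontal axis), split by the best miR-133a-3p match in the 3′UTR, for miR-133a against the empty vector (left) and against 4 other miRNA groups (right). The 8mer curve lies to the left of all others in both panels, with medians of −0.21 and −0.17.

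The median fell as the number of matches rose, while the share of genes that fell did not rise throughout. Genes with 1 match of 7 or 8 bases had a median of −0.10 (1823 genes), those with 2 a median of −0.17 (349 genes) and those with 3 or more a median of −0.21 (52 genes). The shares that fell were 12.7%, 22.3% and 17.3%, and the medians against the other miRNA groups −0.05, −0.09 and −0.07. Where the 3′UTR held 1 match in all and this was an 8mer, sites closer to an end of the 3′UTR went with lower levels: the median was −0.30 for the 105 genes with the site at most 293 bases from the nearer end and −0.16 for the 104 genes with the site over 770 bases away. The site of FTL ends 23 bases before the 3′UTR does, that of GSTP1 23 and that of CNN2 31, and of the 10 genes with a single 8mer within 50 bases of the 3′UTR end 6 fell. This split by position was chosen after the values were seen. It also goes with 3′UTR length, since a site far from each end needs a long 3′UTR. The median of all 8mer genes was −0.30, −0.27 and −0.19 with short, middle and long 3′UTRs, and position and length were not separated. An 8mer outside the 3′UTR went with a smaller shift than an 8mer in it. Among genes with no 3′UTR match of 7 or 8 bases, an 8mer in the coding sequence went with a median of −0.10 against the empty vector but −0.02 against the other miRNA groups (407 genes), and an 8mer in the 5′UTR with −0.04 (22 genes). The 6845 such genes with no match in the coding sequence were at 0.05 and 0.02. The shares that fell were 5.90% with the coding 8mer and 1.65% with no coding match, and 11.1% and 6.38% were lower against the other miRNA groups. The 8mers of the passenger strand, miR-133a-5p, went with a median of −0.02 (316 genes), close to those of miR-155-5p (−0.01) and miR-122-5p (−0.01), the guide strands of 2 other miRNAs of the series.

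The shift was present in each miR-133a library. Measured against the mean of the 12 libraries of the other miRNAs, the 8mer genes minus the genes with no match of 7 or 8 bases differed by −0.17, −0.24 and −0.18 on the log2 scale in the miR-133a libraries and by 0.05, 0.07 and 0.03 in the empty vector libraries. The groups did not overlap, and the spread among the miR-133a libraries was 0.038 (SD, n = 3). From the fold changes against the empty vector, the same difference of medians was −0.23. It was −0.37, −0.28 and −0.17 among genes with short, middle and long 3′UTRs, split into 3 groups of equal size.

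Actin regulators were among the groups with the most genes that fell. Of the 68 tested genes for actin filaments and their regulators, 13 fell (19.1%, against 3.97% of all genes) and 1 rose, while the list's median was 0.01. Besides TAGLN2, CNN2 and CALD1, the tropomyosins TPM1 (−0.79 ± 0.09 SE) and TPM4 (−0.78 ± 0.07), which stabilise filaments, fell, as did the heavy chain of non-muscle myosin MYH9 (−0.94 ± 0.13). ARPC5, a subunit of the Arp2/3 complex that branches filaments, changed by −0.85 ± 0.11, and the coronins CORO1C and CORO1B by −0.76 ± 0.07 and −0.32 ± 0.08. The filament cross-linker FLNA (−0.73 ± 0.14), the scaffold LASP1 (−0.67 ± 0.08), the membrane linker MSN (−0.59 ± 0.07) and the monomer recycler CAP1 (−0.47 ± 0.09) completed the 13. Of these 13, 11 held a 3′UTR match of 7 or 8 bases, CALD1 had a 6mer and FLNA none. CAP2, a paralog of CAP1, rose by 0.60 ± 0.08 although its 3′UTR holds an 8mer. The main actins did not pass, with ACTB at 0.14 ± 0.13 and ACTG1 at 0.02 ± 0.09. Against the other miRNA groups 22 of the 68 were lower (32.4%, against 8.99%). In the list of genes dependent on serum response factor, which drives actin genes, 3 of 23 fell (13%, against 3.97%), namely TPM1, FLNA and the smooth muscle actin ACTA2 (−0.87 ± 0.18). None rose, though 4 were higher and 3 lower at an unadjusted p under 0.05, and SRF itself was at 0.22 ± 0.09 (adjusted p = 0.17, edgeR). For ACTA2 the other miRNA groups were split, with means of 25.7 CPM for miR-155 and 11.7 to 12.7 CPM for the other 3. Its mean was 9.57 CPM with miR-133a and 17.6 CPM in the empty vector.

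**Figure D3:**
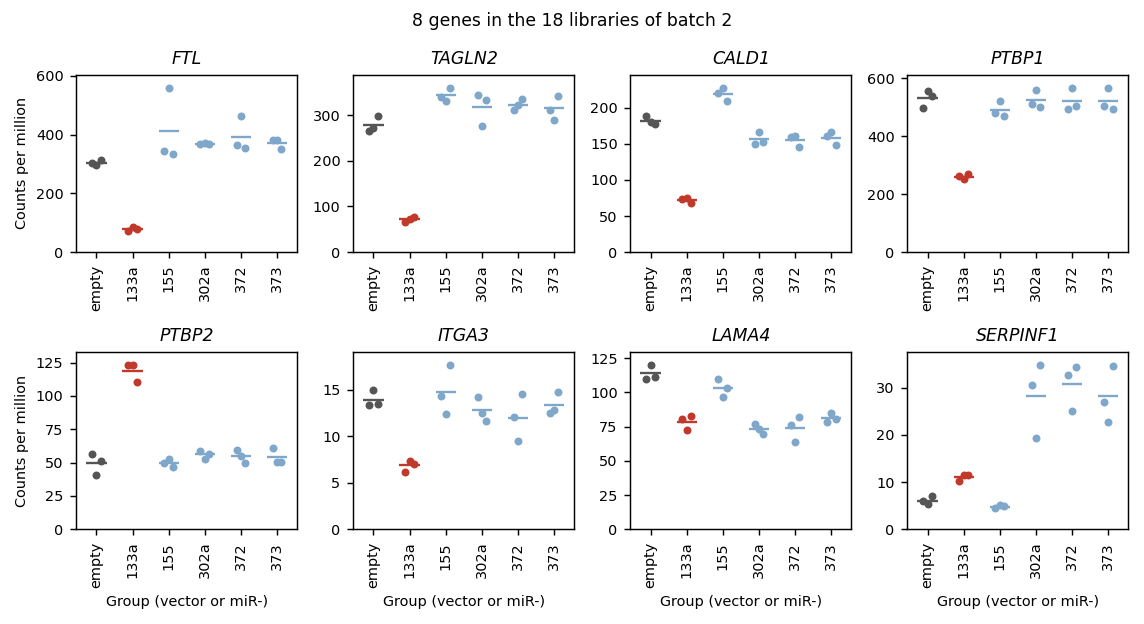
CPM (linear axes from 0) of 8 genes in each of the 18 libraries of batch 2, with the empty vector in grey, miR-133a in red, the other miRNAs in blue and a bar at each group mean. FTL, TAGLN2, CALD1, PTBP1 and ITGA3 are lowest and PTBP2 highest in the miR-133a libraries, whereas LAMA4 and SERPINF1 at miR-133a lie within the range of the other miRNA groups.

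The polypyrimidine tract binding proteins, which bind pyrimidine-rich RNA and repress exons, moved in opposite directions. PTBP1, the form of most cells, fell from 498, 556 and 539 CPM to 261, 253 and 268 CPM (−1.03 ± 0.08 SE, adjusted p = 8.6e-08, edgeR). PTBP3 fell from 106, 112 and 101 CPM to 70.4, 69.2 and 68.0 CPM (−0.62 ± 0.07 SE, adjusted p = 9.5e-06, edgeR). PTBP2, the form abundant in neurons, rose from 56.6, 40.7 and 51.1 CPM to 123, 123 and 111 CPM (1.27 ± 0.11 SE, adjusted p = 3.1e-07, edgeR). The groups did not overlap for any of them, which also held for all 750 called genes and for 35.4% of all genes tested. The values against the other miRNA groups were −0.98, −0.52 and 1.15. All 3 carry an 8mer in the longest annotated 3′UTR, and the PTBP2 and PTBP3 sites printed above share 19 identical bases in a row. The PTBP2 site lies 1033 bases into a 3′UTR that runs on for 9293 bases, and which 3′UTR ends these cells use was not analysed here. In the wider list of 44 splicing factors, 3 fell (6.82%, against 3.97% of all genes), with RBFOX2 the third (−0.33 ± 0.09, adjusted p = 0.037, edgeR). PTBP2 was the 1 that rose (2.27%, against 1.37%), and the list's median was −0.02. RBFOX2 lost the threshold in 5 of the 6 fits without one library and was at an adjusted p of 0.054 (edgeR) against the other miRNA groups.

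Extracellular matrix genes and integrins were lower as a group. Of 52 tested, 11 fell (21.2%) and none rose in edgeR or DESeq2 (1 was higher at an unadjusted p under 0.05), and the list's median was −0.27, against 0.00 over all genes. Integrin ITGA3, a laminin receptor, was at 13.4, 15 and 13.5 CPM in the empty vector and at 6.22, 7.37 and 7.05 CPM with miR-133a (−1.02 ± 0.16 SE, adjusted p = 0.00046, edgeR). The basement membrane genes NID2 (−0.79 ± 0.15), COL4A5 (−0.59 ± 0.12), LAMB1 (−0.54 ± 0.10) and LAMA4 (−0.53 ± 0.09), fibronectin FN1 (−0.76 ± 0.17), the matrix proteins SPARC (−0.54 ± 0.12) and COL2A1 (−0.53 ± 0.12), and the collagen-processing PLOD2 (−0.51 ± 0.07), SERPINH1 (−0.32 ± 0.08) and LOX (−0.28 ± 0.08) followed. Of these 11, 4 held a 3′UTR match of 7 or 8 bases. Part of this list depended on the control: against the other miRNA groups 13 of 52 were lower (25.0%, against 8.99%) with a median of −0.06, ITGA3 was at −0.95 and FN1 at −0.77, but LAMA4 was at −0.06 (adjusted p = 0.59, edgeR), COL4A5 at −0.16 (adjusted p = 0.28) and LOX higher at 0.22 (adjusted p = 0.021). For LAMA4 the other groups were split, with means of 103 CPM for miR-155 and 73.4 to 81.2 CPM for the other 3, against 78.7 CPM with miR-133a and 114 CPM in the empty vector. Of 7 fibroblast markers only the matrix genes COL1A1 and COL3A1 reached 10 reads in a library, and the summed level of the 7 was 15.7 to 17.6 CPM in the empty vector and 9.92 to 12.8 CPM with miR-133a; its part in the list's decrease was not tested. The count of 11 became 21 when only the 6 libraries entered the fit and 7 without miR-133a replicate 2.

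The length of a gene's exons moved with the change against the empty vector. With genes split into 5 groups of equal size by exon length, from the shortest to the longest, the median log2 fold change was 0.09, 0.05, 0.01, −0.04 and −0.09, and the share that fell was 1.14%, 2.31%, 4.13%, 5.77% and 6.51%. Against the other miRNA groups the same medians lay between −0.01 and 0.02. The genes of the matrix list have a median exon length of 5510 bases, against 3584 over all tested genes, and the part of this trend in their decrease was not tested. Measured against the 12 libraries of the other miRNAs, the group of the longest genes was at 0.10, 0.18 and 0.10 in the empty vector libraries and at 0.07, −0.03 and 0.04 in the miR-133a libraries.

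**Figure D4:**
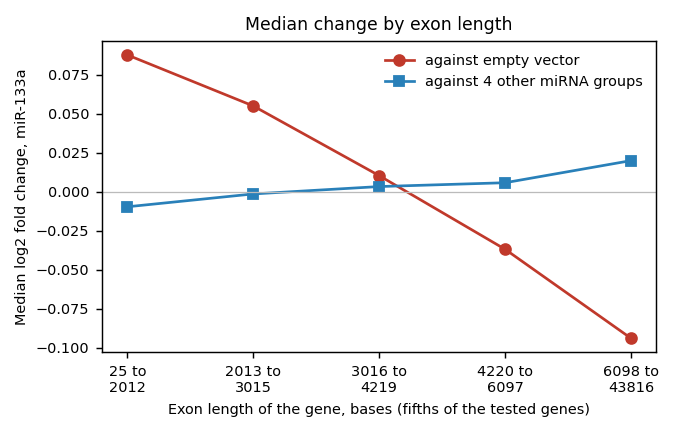
Median log2 fold change of miR-133a (vertical axis) in 5 groups of the tested genes by exon length in bases (horizontal axis), against the empty vector in red and against 4 other miRNA groups in blue. The red line falls from 0.09 to −0.09 while the blue line stays between −0.01 and 0.02.

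Some classes of short genes had medians above 0 against the empty vector, where the group of the shortest genes was at 0.09. The part of the exon length trend in these class medians was not tested. The median was 0.15 for 94 cytosolic ribosomal proteins, 0.20 for 73 mitochondrial ribosomal proteins and 0.18 for 92 genes of oxidative phosphorylation, with median exon lengths of 1650.5, 1536 and 1530 bases, but few members passed. In this order, 1.06%, 2.74% and 0% of the members rose, against 1.37% of all genes. The shares that fell were 0%, 1.37% and 1.09%, against 3.97%. At an unadjusted p under 0.05, 13, 22 and 17 members were higher and 2, 1 and 1 lower. Of the cytosolic ribosomal proteins 1 rose, RPL7 at 0.34 ± 0.10 (SE), which has 61 annotated pseudogenes. Of the mitochondrial ones MRPS30 and MRPS35 rose by 0.33 ± 0.09 and 0.32 ± 0.09 and MRPS14, with a 7mer-A1, changed by −0.41 ± 0.09. Of the oxidative phosphorylation genes SDHAF4, an assembly factor of succinate dehydrogenase, alone passed, and it was lower (−0.81 ± 0.21, adjusted p = 0.025, edgeR), opposite to the median of its class. RPL7, MRPS30 and MRPS35 lost the threshold in all 6 fits that left out a library. The 3 class medians against the other miRNA groups were 0.03, 0.03 and −0.02.

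Of 53 genes described before as miR-133a targets, 14 fell (26.4%, against 3.97% of all genes), 1 rose (1.89%, against 1.37%) and the rest did not pass. The list was written with earlier results of these data known. All 14 held a 3′UTR match of 7 or 8 bases, as did 36 of the 53 and 17.1% of all tested genes with an annotated 3′UTR. Besides FTL, TAGLN2, GSTP1 and the actin regulators LASP1, ARPC5 and MSN, they included SGMS2, a sphingomyelin synthase (−0.78 ± 0.08 SE), the purine enzyme PNP (−0.74 ± 0.07), GCH1 of tetrahydrobiopterin synthesis (−0.69 ± 0.08), the transcription factor FOXC1 (−0.69 ± 0.11), the autophagy gene GABARAPL1 (−0.50 ± 0.10), the TGF-beta receptor TGFBR1 (−0.47 ± 0.08) and caveolin CAV1 (−0.36 ± 0.08). CAV1 was at −0.05 against the other miRNA groups (adjusted p = 0.69, edgeR), whose means were 93.9 CPM for miR-155 and 59.7 to 60.7 CPM for the other 3, on both sides of the 65.2 CPM with miR-133a. PTBP2 was the gene that rose. Several targets best known from muscle did not pass here: RHOA was at −0.03 ± 0.08, CDC42 at 0.07 ± 0.10, NELFA at 0.11 ± 0.07, IGF1R at −0.27 ± 0.12 and KCNQ1 at 0.11 ± 0.35. CDC42 and KCNQ1 hold no match, not even a 6mer, in the 3′UTR searched, and KCNQ1 had a mean of only 3.45 CPM in the empty vector. These values are RNA levels alone, so a change in translation would not be seen. EGFR was at −0.67 ± 0.22 (adjusted p = 0.081, edgeR) and COL1A1 at −0.56 ± 0.21 (adjusted p = 0.13). Against the other miRNA groups EGFR was at 0.14 (adjusted p = 0.64, edgeR) and COL1A1 at −0.99 (adjusted p = 0.00039). The transcription factors FLI1, SP3 and KLF3 are not of this list. The study named them from its own miR-133a data, these libraries among them, so their values are not independent evidence. FLI1 (−0.65 ± 0.14, adjusted p = 0.0085, edgeR) and SP3 (−0.41 ± 0.08, adjusted p = 0.0039, edgeR), each with an 8mer, fell, FLI1 being the 1 of 17 ETS factors to do so. The other miRNA groups were split for FLI1, with means of 5.63 CPM for miR-155 and 12.66 to 14.02 CPM for the other 3. Its mean was 5.72 CPM with miR-133a, close to that of miR-155, and 8.96 CPM in the empty vector. KLF3, which has no match, not even a 6mer, in the 3′UTR searched, was at −0.23 ± 0.07 (adjusted p = 0.054, edgeR). It was at −0.09 (adjusted p = 0.29, edgeR) against the other miRNA groups.

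Membrane traffic and metabolic lists had a few members each that fell. Of 40 endocytosis genes 5 fell (12.5%, against 3.97% of all genes) and none rose in edgeR (2 in DESeq2, and 5 at an unadjusted p under 0.05), and all 5 that fell held a match of 7 or 8 bases. They included the clathrin light chain CLTA (159, 152 and 167 CPM against 72.0, 83.0 and 69.7 CPM, −1.09 ± 0.12 SE), CAV1, EPS15 (−0.28 ± 0.07) and RAB5C (−0.39 ± 0.11). Of 19 genes of the vacuolar proton pump ATP6AP2 (−0.89 ± 0.09) and ATP6V1A (−0.31 ± 0.08) fell (10.5%), both with a match. Of 26 iron handling genes FTL alone passed, with the ferritin heavy chain FTH1 at 0.17 and the transferrin receptor TFRC at 0.08. Of 33 genes of the NRF2 and glutathione list FTL, GSTP1 and GPX8 (−0.26 ± 0.07) fell (9.09%). Of 28 cholesterol genes 2 fell (7.14%), among them the squalene epoxidase SQLE (−0.61 ± 0.09), beside a list median of 0.16. Among 26 glycolysis genes PFKFB3 (−0.38 ± 0.08) and PDK3 (−0.40 ± 0.10) fell and PDK1 (0.48 ± 0.11) and the glucose transporter SLC2A3 (0.46 ± 0.12) rose, although SLC2A3 was lower against the other miRNA groups (−0.74, adjusted p = 1.7e-05, edgeR). Of 242 solute carriers 17 fell (7.02%) and 2 rose (0.826%, against 1.37% of all genes). RAB5C, ATP6V1A and GPX8 lost the threshold in all 6 fits without one library, EPS15 and PDK3 in 5, SLC2A3 in 4, CAV1 in 2 and PDK1 in 1, and GPX8 was at −0.06 against the other miRNA groups (adjusted p = 0.54, edgeR).

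**Figure D5:**
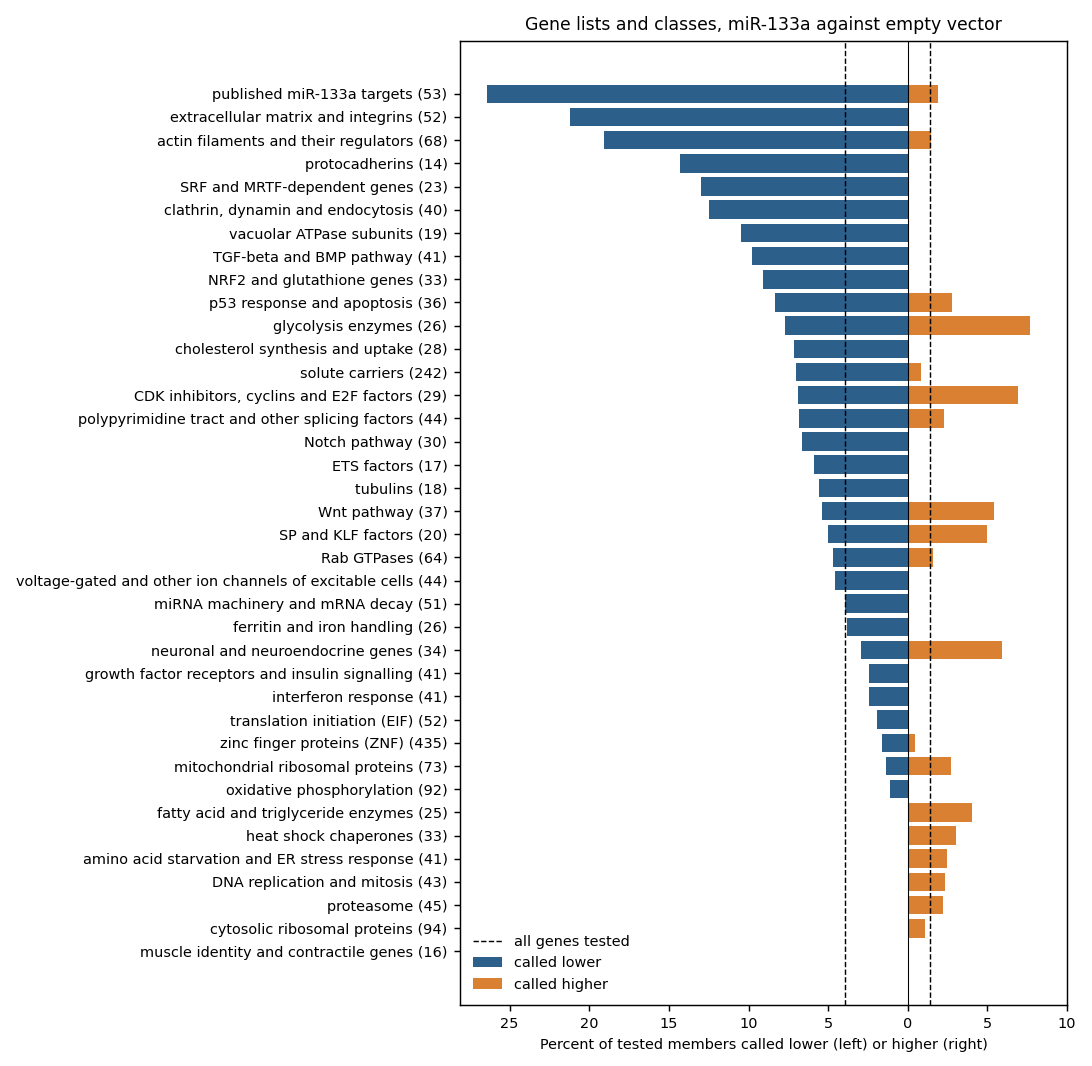
Share of tested members (in percent, number tested in brackets) that was lower, to the left in blue, or higher, to the right in orange, for each gene list and class with 10 or more tested members, with dashed lines at the shares over all genes, 3.97% and 1.37%. Published targets, matrix and integrin genes and actin regulators have the longest bars to the left, between 19.1% and 26.4%.

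Signalling lists had between 2.44% and 9.76% of their members lower, against 3.97% of all genes. In the TGF-beta and BMP list 4 of 41 fell (9.76%), TGFBR1, the secreted FSTL1 (−0.43 ± 0.08 SE), the co-receptor TGFBR3 (−0.29 ± 0.08) and the latency protein LTBP1 (−0.28 ± 0.08). TGFBR3 and LTBP1 lost the threshold in all 6 fits without one library, and LTBP1 was at −0.07 (adjusted p = 0.54, edgeR) against the other miRNA groups. In the Notch list RBPJ, the DNA-binding effector (−0.40 ± 0.06), and its co-activator MAML3 (−0.51 ± 0.13) fell, 2 of 30. In the p53 and apoptosis list 3 of 36 fell, the death receptor TNFRSF10B (−0.87 ± 0.08), TP53INP1 (−0.62 ± 0.13) and XPC (−0.33 ± 0.08), and BAD rose (0.46 ± 0.11). In the Wnt list LGR5 (−0.62 ± 0.08) and WNT5A (−0.36 ± 0.08) fell and PORCN (0.64 ± 0.18) and DVL1 (0.27 ± 0.08) rose, 2 of 37 each way (5.41%, against 1.37% of all genes for those that rose). WNT5A was at 0.04 (adjusted p = 0.73, edgeR), PORCN at 0.29 (adjusted p = 0.16), DVL1 at 0.16 (adjusted p = 0.079) and BAD at 0.16 (adjusted p = 0.22) against the other miRNA groups. Without one library PORCN lost the threshold in 6 of 6 fits, DVL1 in 5, XPC and BAD in 4, MAML3 and WNT5A in 3 and TP53INP1 in 1. Of 41 genes for growth factor receptors and insulin signalling EPHB4 alone fell (−0.36 ± 0.08). Of 41 interferon response genes 1, HERC6, fell (−0.75 ± 0.12), and against the other miRNA groups 17 were higher (41.5%, against 8.79% of all genes).

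Proliferation, stress and muscle lists held few changes or none. Of 43 DNA replication and mitosis genes 1 rose, BIRC5, an inhibitor of apoptosis that acts at chromosomes in mitosis (0.31 ± 0.08 SE). Among 29 cyclins, inhibitors and E2F factors E2F7 (−0.38 ± 0.10) and SKP2 (−0.31 ± 0.07) fell and E2F1 (0.37 ± 0.09) and E2F6 (0.38 ± 0.11) rose, 6.90% each way, against 3.97% and 1.37% of all genes. In the amino acid and endoplasmic reticulum stress list HERPUD1 (0.28 ± 0.08) and in the heat shock list BAG3 (0.37 ± 0.10) rose. None of E2F7 (−0.01, adjusted p = 0.97), E2F6 (0.21, adjusted p = 0.090), BIRC5 (0.09, adjusted p = 0.41), HERPUD1 (0.14, adjusted p = 0.12) and BAG3 (0.16, adjusted p = 0.20) passed in edgeR against the other miRNA groups. In the 6 fits without one library BIRC5, E2F6 and BAG3 lost the threshold in all, E2F7 and HERPUD1 in 5, E2F1 in 4 and SKP2 in 2. Of 47 muscle identity and contractile genes 16 had enough counts to be tested and none passed in edgeR or DESeq2, with 1 at an unadjusted p under 0.05, which was higher. MYOG, MYF5, MYF6, MYH2 and CAV3 had 0 reads in all 6 libraries, and the summed level of the list was 231 to 245 CPM in the empty vector and 227 to 240 CPM with miR-133a. The largest parts of this sum were MEF2A (881 to 1103 reads a library in the empty vector) and RYR2 (543 to 750 reads). Of 13 markers fixed for this cell line 11 were in the table, each reached 10 reads, and their summed level was 1572 to 1587 CPM in the empty vector and 1567 to 1719 CPM with miR-133a. The largest part of this sum was VIM (13786 to 15888 reads a library in the empty vector). Among these markers EYA1, a transcriptional co-activator of kidney development, fell from 109 to 134 reads a library to 72 to 87 (−0.57 ± 0.14, adjusted p = 0.021, edgeR). The keratins KRT8 (2445 to 2752 reads against 2865 to 3395, 0.31 ± 0.08) and KRT18 (1174 to 1241 reads against 1310 to 1652, 0.35 ± 0.10) rose, with −0.12 (adjusted p = 0.25, edgeR) and 0.07 (adjusted p = 0.59) against the other miRNA groups.

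Among the further lists, 7 of 435 zinc finger genes fell (1.61%) and 2 rose, 3 of 64 Rab GTPases fell (4.69%) and 1 rose, and 2 of 14 protocadherins fell, where 3.97% of all genes fell. RAB32, the Rab gene with the deepest decrease (−1.23 ± 0.19 SE), was at −0.33 (adjusted p = 0.19, edgeR) against the other miRNA groups, whose means were 8.55 CPM for miR-155 and 2.64 to 3.47 CPM for the other 3, with 3.09 CPM for miR-133a. The protocadherins, PCDHGA11 and PCDHGC3, share exons within their cluster, so that their reads cannot be assigned with certainty. Of 34 neuronal and neuroendocrine genes 1 fell and 2 rose, CGA and RTN1 (0.53 ± 0.14). Of 44 ion channel genes KCNC1 (−0.62 ± 0.15) and the calcium pump ATP2B4 (−0.43 ± 0.10) fell, and of 51 genes of the miRNA machinery and mRNA decay BTG2 (−0.46 ± 0.08) and PAN3 (−0.36 ± 0.07) fell. AGPAT2 (0.31 ± 0.09) rose among 25 lipid genes, KLF16 (0.33 ± 0.08) among 20 SP and KLF factors, and PSMB10 (0.66 ± 0.16) among 45 proteasome genes. Of 52 initiation factor genes EIF4A1, the RNA helicase of translation initiation, fell by 0.39 on the log2 scale; its 3′UTR holds an 8mer, and it overlaps other annotated genes and has 13 annotated pseudogenes. Of 18 genes with symbols of tubulins or of the complex that nucleates them, the nucleation factor TUBGCP3 alone fell (−0.24 ± 0.07), and no tubulin itself passed. PCDHGA11, PCDHGC3, KCNC1, AGPAT2, KLF16, PSMB10 and TUBGCP3 did not pass in edgeR against the other miRNA groups, and these 7 and RTN1 lost the threshold in 4 to 6 of the 6 fits without one library, ATP2B4 in 2 and EIF4A1 in 1. By gene type, 539 of 13066 protein-coding genes fell (4.13%) and 184 rose (1.41%), against 7 (1.16%) and 4 (0.666%) of 601 lncRNA genes. Over all genes the shares were 3.97% and 1.37%. The lncRNA median was nonetheless lower, at −0.10 against 0.00 for protein-coding genes. Of the fifth of genes with the lowest mean level only 1.21% fell, and the part of expression level in the difference between gene types was not tested.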

How the data were processed

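RNA was polyA-selected and sequenced from directional libraries. Per the labels and the study's methods, the authors aligned reads to hg19 with TopHat2 2.1.1 and counted them per gene over exons with featureCounts, by strand and at high mapping quality; the deposited values used here are raw read counts. The authors' own comparison tables, which hold log2 fold changes, mean log2 CPM and test statistics of RNA-seq and of RNA-seq combined with PRO-seq, were not used, nor were the batch 1 counts. Samples were grouped by their labels.

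Genes passing filterByExpr (minimum count 10) in the 18 libraries of batch 2, 6 groups of 3, were fitted with edgeR 4.0.16 (R 4.3.3; TMM, quasi-likelihood F test, prior count 0.125 for fold changes, Benjamini-Hochberg adjustment over 14054 genes, threshold 0.05). CPM values use TMM library sizes. Replicates were transduced and kept separately; no 2 libraries of a group agreed within sampling noise. With 3 libraries a group, precision is that of the shared spread. The fit was tested on simulated counts.

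Symbols were taken from GENCODE v44 on GRCh37, the build of hg19, for 28543 of 29794 genes, and sites were searched in the transcript chosen per gene on the sense strand. Named genes were the 15 lowest and 10 highest by log2 fold change among genes past the threshold with mean log2 CPM of at least 1 and no overlap between groups. Also named were up to 4 called members of each list by smallest p, the published targets and the transcription factors named by the study. Other members are named with a list's full count. Some members that meet this rule are counted but not reported here by name. Members and lists were chosen with earlier results of these data known; the published targets come from general knowledge of the literature. Alternatives were DESeq2 1.42.0, other tests, filters and fits, and leaving out each library.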

Additional observations from a re-analysis of the deposited data

How the results depend on the processing

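The genes called against the empty vector were 17.3% of those tested when only the 6 libraries entered the fit and 2.63% to 3.45% when any one of them was left out, against 5.34%. The share of the called genes that was lower was 68.2% with the DESeq2 Wald test, 68.7% with edgeR's likelihood ratio test, 57.3% with only the 6 libraries and 75.4% to 84.2% without one library, against 74.4%. With only 2 libraries left in a group, that pair is assumed to vary like the others. Against the other miRNA groups 10.5% to 11.4% of genes were called without one miR-133a library, against 17.8%. The matrix and integrin list had 21 members lower with only the 6 libraries and 7 to 9 without one library, while the actin list had 12 to 17 under the settings tried. The 8mer difference was −0.37, −0.28 and −0.17 in genes of short, middle and long 3′UTRs and −0.25 to −0.22 without one library. The cause of these changes was not tested beyond the smaller number of samples. Same-numbered miR-133a and empty vector libraries did not deviate together (correlations of 0.020, −0.075 and 0.060), so the numbers do not pair them; a fit with the replicate number as a block called 9.31% of genes (1308), 63.6% of them lower, and 22.6% against the other miRNA groups, of which miR-155 and miR-372 libraries did deviate with their miR-133a numbers. Over all named genes, 218 single values lost the threshold under some setting, 26 gained it, 1703 did neither and none reversed.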
